A study of Homo sapiens with 16 samples.

Results

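RhoA, Rac1, Cdc42 and their relatives are small GTPases, molecular switches that organise the actin cytoskeleton, cell adhesion and polarity, and 58 genes named as regulators that turn these switches on or off, 1 of them a pseudogene (ARHGEF34P), are described here in MCF10A, a line of human breast epithelial cells that became immortal in culture without forming tumours. The genes were chosen by name: an ARHGEF, ARHGAP or DOCK symbol with a total of at least 160 counts over the 16 libraries. Of the 26475 genes in the table, 72 had such a name and 58 reached the total (22 ARHGEF, 25 ARHGAP and 11 DOCK members). The libraries came from 4 groups of 4. Control cells received DMSO and normal media changes without collagen. Collagen cells received DMSO and, for the last 24 h, collagen at 0.05 mg/mL. The third group received the same collagen with 2 μM DDR1-IN-1 (DDR1i), an inhibitor of the collagen receptor kinase DDR1, for 48 h, and the fourth received it with 5 μM AI-10-104 (RUNXi), which blocks the binding of RUNX transcription factors to CBFβ, for 48 h. All groups were grown in the same medium with insulin, EGF, hydrocortisone, cholera toxin and horse serum, so that no group was free of growth factors.

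ARHGEF proteins are guanine nucleotide exchange factors of the Dbl type, which load these GTPases with GTP. DOCK proteins are a separate family of exchange factors that act on Rac or Cdc42, in part together with ELMO adaptors, and ARHGAP proteins speed up GTP hydrolysis and so switch the GTPases off. In epithelial cells such regulators set the contractility of cell junctions, cell spreading on matrix and migration.

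Total counts per library ranged from 12184619 to 44332378. All 58 members passed the filter on low counts in all 6 comparisons. The members just above the total of 160 were DOCK3 (194 counts) and ARHGAP28 (204 counts), and the names just below it were ARHGEF6 (153 counts) and ARHGAP30 (95 counts). Of the 14 names under the total, 3 (ARHGEF15, ARHGAP15 and ARHGAP36) had 0 counts, which over all libraries allows up to 3 counts. The line is labelled as breast epithelium. The basal markers KRT5, KRT14, KRT17, TP63 and ITGB4 and the epithelial markers CDH1 and EPCAM were detected in 16 of 16 libraries. Of the hormone receptor genes, PGR had 0 counts, while ESR1 had 164 counts in all and was detected in 10 of 16 libraries. The pan-leukocyte gene PTPRC had 1 count in all.

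Levels of the members were compared as CPM (normalized counts, scaled to the same library total) per kb of transcript, since longer transcripts collect more reads. ARHGEF1, a RhoA exchange factor that couples to G protein signalling, had the highest level per kb of all members (mean 52.6 CPM per kb over 16 libraries). ARHGEF2, a RhoA exchange factor held on microtubules, followed at 37.6 CPM per kb, and ARHGAP1, a GAP with activity towards Cdc42 and RhoA, at 34.7 CPM per kb. The next levels were far lower, at 15.7 CPM per kb for ARHGAP11A, a gene of proliferating cells, 14.6 for the p190 RhoGAP gene ARHGAP35 and 14.1 for ARHGEF10.

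Among DOCK genes, DOCK1, a Rac exchange factor that works with ELMO, had the highest level at 11.1 CPM per kb, followed by the Cdc42 exchange factor gene DOCK9 at 9.31 and DOCK5, the closest relative of DOCK1, at 8.35 CPM per kb. DOCK2, best known from leukocytes, was at 0.106 CPM per kb, and DOCK3, best known from neurons, was lowest of all members at 0.05 CPM per kb. The CPM of a member varied over the 16 libraries with a coefficient of variation between 12.9% (ARHGAP19) and 121% (ARHGAP28), and the 3 members with the lowest levels per kb, DOCK3, DOCK2 and ARHGAP28, had the 3 highest coefficients.

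**Figure D1:**
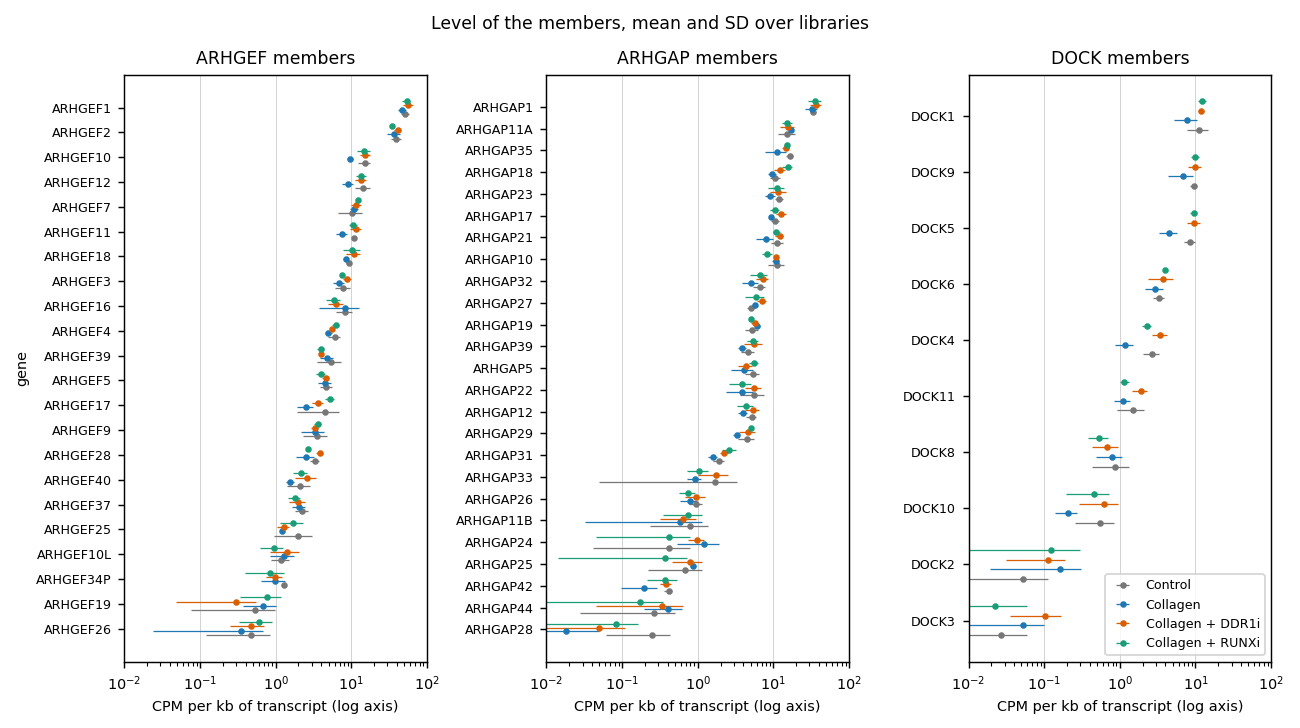
Level of the members in CPM per kb of transcript (log axis), with the mean and SD over libraries in each of the 4 groups (3 collagen libraries, replicate 3 left out, and 4 in each other group). ARHGEF1, ARHGEF2 and ARHGAP1 stand above all other members, at 34.7 to 52.6 CPM per kb on average in the mean over libraries. SD bars that reach the left edge belong to members near 0.

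Several members share sequence with a near copy, so that their counts cannot be fully separated. Of all 150-base stretches in ARHGEF5, 52% were also present in the pseudogene ARHGEF34P (1799 counts) and 12.6% in ARHGEF35 (24 counts). ARHGAP11B, a partial duplicate, shared 10.4% of its stretches with ARHGAP11A. ARHGAP8 (30 counts) overlaps the readthrough gene PRR5-ARHGAP8 and was under the total.

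Each inhibitor was compared with collagen alone to ask which of these regulators depended on DDR1 or RUNX activity under collagen. Of the collagen libraries, replicate 3 was left out, following the published methods. The other 3 collagen libraries, 4 DDR1i libraries and 4 RUNXi libraries shared 1 fit. The comparisons therefore share their collagen libraries. Counts were tested by the quasi-likelihood method of edgeR, p-values were adjusted by Benjamini-Hochberg over all 13548 tested genes, and a member was called at an adjusted p under 0.05.

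With DDR1i, 6 members were higher than with collagen alone and 0 were lower: DOCK4, DOCK5, ARHGEF10, ARHGEF11, ARHGEF12 and ARHGAP21. These 6 are 10.3% of the members, and 2.47% of all tested genes were called, 1.69% higher and 0.775% lower. At an unadjusted p under 0.05, 21 members were higher and 0 lower, against 9.88% and 8.14% of all tested genes. DESeq2 called 7 members, all higher, against 6.15% of all tested genes called, 3.65% higher. With RUNXi, 9 members were higher and 0 were lower: DOCK5, DOCK4, DOCK1, ARHGEF17, ARHGEF10, ARHGEF12, ARHGAP18, ARHGAP29 and ARHGAP31. They are 15.5% of the members, against 4.05% of all tested genes called, 2.59% higher and 1.46% lower. At an unadjusted p under 0.05, 16 members were higher and 2 lower, against 10.8% and 10.2% of all tested genes, and DESeq2 called 11, against 8.51%. Of the 11 members called with either inhibitor, 4 (DOCK4, DOCK5, ARHGEF10 and ARHGEF12) were called with both.

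The calls rested on the choice of collagen libraries and moved with transcript length, as the values further on show. With collagen replicate 3 included, 0 members were called with either inhibitor by edgeR's quasi-likelihood test.

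DOCK4, on the minus strand at chr7:111366166-111846462 (GRCh37), encodes a Rac exchange factor of the DOCK-B class that has been studied in cell migration and Wnt signalling. Its CPM was 9.54, 12.6 and 7.33 in collagen replicates 1, 2 and 4, and 21.6, 34.4, 33.9 and 25.1 in the DDR1i replicates. In the RUNXi replicates it was 21.5, 20.8, 15.8 and 18.1, and in the control replicates 19.2, 16.5, 28.1 and 24.5. All inhibitor and all control libraries lay above the 3 collagen libraries, whereas collagen replicate 3, at 23.3 CPM, lay among the inhibitor and control libraries. The log2 fold change was 1.55 (SE 0.23, edgeR adjusted p = 0.00123) with DDR1i and 0.95 (SE 0.23, edgeR adjusted p = 0.0224) with RUNXi.

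DOCK5, on the plus strand at chr8:25042204-25275598 (GRCh37), encodes a Rac exchange factor of the DOCK-A class known for roles in cell spreading and in osteoclasts. Its CPM was 60.1, 41.6 and 36.7 in the 3 collagen libraries. It was 70.7, 102, 100 and 117 in the DDR1i replicates, and 98.8, 82.6, 98.9 and 108 in the RUNXi replicates. The control replicates had 81.2, 75.1, 85.3 and 108 CPM. Again the 3 collagen libraries were the lowest of all and did not overlap any other group, and collagen replicate 3, at 102 CPM, did not lie with them. The log2 fold change was 1.08 (SE 0.17, edgeR adjusted p = 0.0023) with DDR1i and 1.07 (SE 0.17, edgeR adjusted p = 0.00115) with RUNXi, about the same size with both inhibitors.

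DOCK1, at chr10:128593978-129250781, completes the DOCK members that were called. Its CPM was 62.2, 65.4 and 33.0 in the 3 collagen libraries and 82.0, 79.3, 97.8 and 74.0 with RUNXi. With RUNXi its log2 fold change was 0.63 (SE 0.18, edgeR adjusted p = 0.0447), while the value with DDR1i, 0.60, missed the threshold (edgeR adjusted p = 0.0675). Collagen replicate 4 was far below the other collagen libraries for this gene, and control replicate 2, at 44.4 CPM, lay within the collagen range. The DOCK-D genes DOCK9, DOCK10 and DOCK11, which act on Cdc42 and in part on Rac, had medians of 0.76 and 0.52. With DDR1i, 3 of them were higher at an unadjusted p under 0.05 and with RUNXi 1 was, where 9.88% and 10.8% of all tested genes were, and 0 were called by either tool.

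ARHGEF10, at chr8:1772092-1906807, encodes a RhoA exchange factor associated with nerve myelination. Its CPM was 50.1, 60.5 and 54.6 with collagen alone, and 74.3, 82.8, 84.4 and 106 with DDR1i. The RUNXi replicates had 65.6, 76.0, 103 and 92.1 CPM. The 3 collagen libraries were close together and below all 8 inhibitor libraries, with a log2 fold change of 0.65 (SE 0.16, edgeR adjusted p = 0.0262) with DDR1i and 0.61 (SE 0.16, edgeR adjusted p = 0.0318) with RUNXi. Control replicates, at 69.3 to 102 CPM, were above the collagen libraries too.

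ARHGEF11 and ARHGEF12 encode PDZ-RhoGEF and LARG, which with ARHGEF1 form the RGS-domain RhoGEFs that link Gα12/13 signalling to RhoA. ARHGEF12, at chr11:120207122-120360646, had 96.0, 107 and 77.1 CPM in the 3 collagen libraries, 107, 135, 144 and 163 CPM with DDR1i, and 135, 148, 115 and 162 CPM with RUNXi. DDR1i replicate 1 (107.28 CPM) was just above collagen replicate 2 (107.26 CPM), so that the groups barely parted. The log2 fold change of ARHGEF12 was 0.55 with DDR1i (SE 0.15, edgeR adjusted p = 0.0469) and 0.58 with RUNXi (SE 0.15, edgeR adjusted p = 0.0318).

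ARHGEF11, at chr1:156904632-157015534, had 63.7, 52.2 and 47.1 CPM with collagen alone and 68.0, 75.8, 94.3 and 94.8 CPM with DDR1i. It was called with DDR1i (log2 fold change 0.61, SE 0.15, edgeR adjusted p = 0.0303), and had a value of 0.49 with RUNXi that missed the threshold (edgeR adjusted p = 0.0602). The third of these genes, ARHGEF1, had the highest level of all members, and its log2 fold changes were 0.25 with DDR1i and 0.18 with RUNXi, neither called.

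ARHGEF17, at chr11:73019321-73080433, encodes a RhoA exchange factor known from endothelial junctions. Its CPM was 14.8, 23.3 and 23.2 with collagen alone and 47.6, 35.0, 46.2 and 42.4 with RUNXi. All 4 RUNXi libraries were above the collagen libraries (log2 fold change 1.06, SE 0.19, edgeR adjusted p = 0.00406). The DDR1i replicates, at 23.9, 27.0, 35.2 and 30.7 CPM, were just above the collagen libraries, with a log2 fold change of 0.51 (edgeR adjusted p = 0.145). In the control group replicate 3 had 66.9 CPM while the others had 21.8 to 28.6 CPM, so that the control libraries overlapped each other group.

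Among the ARHGAP members, ARHGAP18, ARHGAP29 and ARHGAP31 were called with RUNXi and ARHGAP21 with DDR1i. ARHGAP18, at chr6:129897277-130031322, encodes a RhoA GAP that limits stress fibres. It had 45.1, 45.6 and 36.2 CPM with collagen alone and 78.5, 73.4, 67.3 and 53.8 CPM with RUNXi (log2 fold change 0.68, SE 0.16, edgeR adjusted p = 0.0228). Unlike those of DOCK4 and DOCK5, its control libraries (36.0 to 52.9 CPM) overlapped the collagen libraries, and all 4 RUNXi libraries were above the control.

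ARHGAP29, a RhoA GAP gene linked to orofacial clefts and to junction tension, had 28.1, 33.0 and 26.6 CPM with collagen alone and 44.7, 44.4, 45.8 and 44.7 CPM with RUNXi, the smallest SD of any group over the 11 called members (0.62 CPM; log2 fold change 0.61, SE 0.18, edgeR adjusted p = 0.0494). ARHGAP31, which encodes a Cdc42 and Rac1 GAP, had 13.2, 16.8 and 14.1 CPM with collagen alone and 19.5, 24.3, 31.5 and 22.3 CPM with RUNXi (log2 fold change 0.72, SE 0.20, edgeR adjusted p = 0.0447). ARHGAP21, which encodes a Golgi and junction GAP for Cdc42 and RhoA, had 74.6, 54.0 and 45.6 CPM with collagen alone and 73.4, 93.6, 89.2 and 99.5 CPM with DDR1i. Its groups overlapped in 1 pair of libraries, and the log2 fold change was 0.62 (SE 0.16, edgeR adjusted p = 0.0351).

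**Figure D2:**
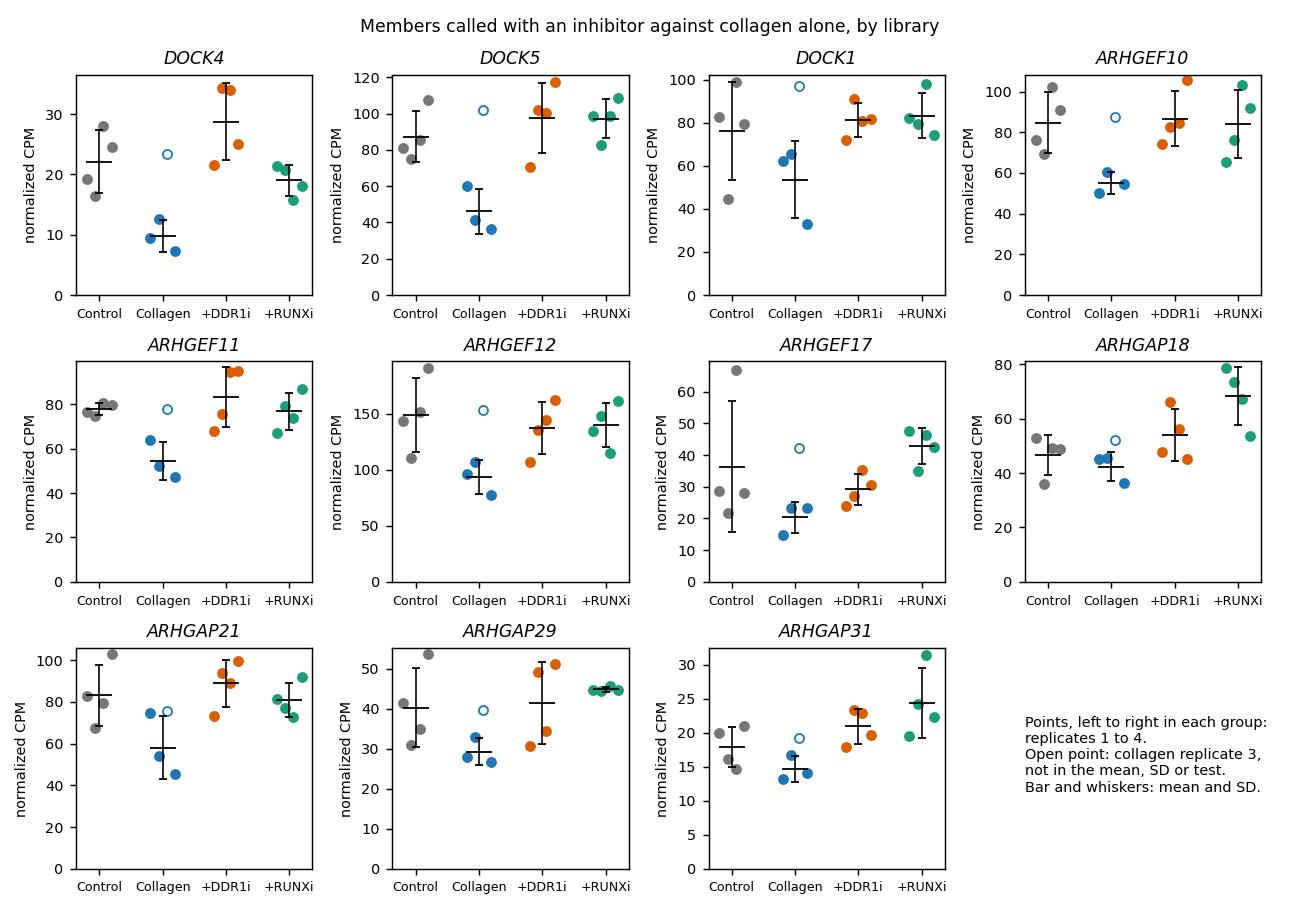
Normalized CPM of the 11 members called with an inhibitor against collagen alone, 1 panel a gene, with replicates 1 to 4 of each group from left to right; bars and whiskers give the mean and SD without collagen replicate 3 (open point). In 8 of the 11 panels all 8 inhibitor libraries lie above the 3 filled collagen points, and in 11 of 11 the open point lies above the filled collagen points and inside the range of the inhibitor libraries. The genes were chosen as higher than the filled collagen points, so that these counts follow in part from the choice.

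Members with lower values under an inhibitor did not pass the test. ARHGAP24, which encodes FilGAP, a Rac GAP bound to filamin A, had the strongest of these, with 8.36, 6.31 and 2.20 CPM in the 3 collagen libraries and 0.33, 4.29, 1.27 and 1.72 CPM with RUNXi (log2 fold change −1.56, SE 0.58, edgeR adjusted p = 0.117). The groups overlapped, and all values were low. ARHGAP10, a GAP gene for Cdc42 and RhoA, had a log2 fold change of −0.38 with RUNXi (edgeR adjusted p = 0.18). With DDR1i the lower members with the smallest p were ARHGEF19 (−1.19), ARHGEF16 (−0.35) and ARHGEF39 (−0.24), with edgeR adjusted p between 0.528 and 0.613.

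Over all 58 members the median log2 fold change was 0.35 with DDR1i and 0.19 with RUNXi, against 0.00 and 0.01 over all tested genes, and 44 and 40 members were above 0, against 50.3% and 50.5% of all tested genes. By subfamily the DDR1i medians were 0.16 for ARHGEF, 0.36 for ARHGAP and 0.60 for DOCK members. The RUNXi medians were 0.16, 0.20 and 0.44 in the same order. The DDR1i libraries did not overlap the collagen libraries for 15 members, all higher (25.9%, against 8.44% of all tested genes). The RUNXi libraries were wholly higher for 12 members (20.7%, against 9.46%) and wholly lower for 1 (8.8% of all tested genes).

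The summed CPM of the 7 basal and epithelial markers above, most of it from keratin genes, was 10303 to 13729 in the DDR1i libraries, 15007 to 20265 in the collagen libraries, 17105 to 19814 in the RUNXi libraries and 14827 to 18845 in the control libraries. In RNA from whole cultures, fewer cells of a type and less RNA per cell cannot be told apart, and the part of this difference in the DDR1i results was not tested. Summed leukocyte, fibroblast and endothelial markers reached at most 28.7, 6.35 and 2.40 CPM in any library, and almost all of the first was CD68, which many cell types express.

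Direct comparison of the inhibitors called 0 members, against 0.568% of all tested genes, and DESeq2 also called 0, against 0.989%. At an unadjusted p under 0.05 there were 9 members, 7 higher with DDR1i and 2 higher with RUNXi, against 3.2% and 2.99% of all tested genes. DOCK4 was higher with DDR1i than with RUNXi by 0.60 on the log2 scale (SE 0.20, edgeR adjusted p = 0.366). Its groups barely parted, at 21.57 CPM in DDR1i replicate 1 and 21.46 CPM in RUNXi replicate 1. The DDR1i libraries were wholly above the RUNXi libraries for 5 members (8.62%, against 2.27% of all tested genes). DOCK11 differed by 0.71 (edgeR adjusted p = 0.472) and ARHGEF28 by 0.51 (edgeR adjusted p = 0.524), both with higher values under DDR1i, while ARHGEF17 (−0.55, edgeR adjusted p = 0.276) and ARHGAP18 (−0.33, edgeR adjusted p = 0.733) had higher values under RUNXi. A difference between the inhibitors is thus not shown for any member, also where only 1 of the inhibitors had passed the threshold against collagen.

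Collagen alone was compared with the control to ask what collagen did to these genes, again without collagen replicate 3. By edgeR's quasi-likelihood test 0 members were called, and 0% of all 13092 tested genes were. At an unadjusted p under 0.05, 11 members were lower with collagen, against 6.98% of all tested genes, and 0 were higher. DESeq2 called 4 as lower: ARHGEF10, ARHGEF11, ARHGEF12 and DOCK5. It called 3.17% of all tested genes, 1.72% as lower. The median over the members was −0.27 against 0.01 over all tested genes, and 47 of 58 members were below 0, while 50.9% of all tested genes were above 0. The collagen libraries were wholly below the control libraries for 12 members (20.7%, against 7.17% of all tested genes).

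The lowest p values belonged to DOCK5, with a log2 fold change of −0.91 (SE 0.19, edgeR adjusted p = 0.107), DOCK4 with −1.16 (SE 0.28, edgeR adjusted p = 0.126) and ARHGEF12 with −0.67 (SE 0.18, edgeR adjusted p = 0.135). In a fit of all 4 groups together, 4 members (DOCK4, DOCK5, ARHGEF10 and ARHGEF12) passed the threshold as lower with collagen, against 1.46% of all tested genes in that fit. These values rest on the same 3 collagen libraries as the inhibitor comparisons. Among higher values, ARHGAP24 had a log2 fold change of 1.5 (edgeR adjusted p = 0.489), with 0 to 3.93 CPM in the control libraries.

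Comparisons of the inhibitor groups with the control do not use the collagen libraries. For DDR1i against control, 0 members were called (0.212% of all tested genes), 1 member, ARHGAP27, passed an unadjusted p under 0.05 (log2 fold change 0.46; 5.13% of all tested genes), and DESeq2 called 0 (0.492%). For RUNXi against control, 0 members were called (0.401% of all tested genes), 4 passed an unadjusted p under 0.05 (6.81%), and DESeq2 called 0 (0.817%). ARHGAP18, one of these 4, had the smallest p, with a log2 fold change of 0.54 (SE 0.16, edgeR adjusted p = 0.229). The member medians were 0.08 and −0.06, close to the 0.01 and 0.00 of all tested genes.

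The members are long genes. Their transcripts had a median length of 5753 bases (2554 to 10326), against 3260.5 bases for the tested genes, and 53 of 58 were longer than that value. DOCK members, at a median of 7286 bases, were the longest subfamily. Log2 fold changes of all tested genes rose with length in both inhibitor comparisons. With DDR1i the median over all tested genes was −0.19 for transcripts up to 2 kb, −0.03 at 2 to 4 kb, 0.13 at 4 to 6 kb, 0.22 at 6 to 8 kb and 0.32 over 8 kb. With RUNXi the same bins had −0.23, −0.04, 0.13, 0.22 and 0.33. For collagen against control the trend had the opposite sign, from 0.24 for the shortest to −0.35 for the longest transcripts.

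The share of all tested genes that were called was 1.93%, 1.01%, 2.25%, 4.35% and 9.64% in the same bins with DDR1i, and 3.79%, 1.74%, 3.6%, 7.33% and 13.4% with RUNXi, highest for the longest transcripts. Medians and calls of the members were also higher in the longer bins. With DDR1i the 12 members of 2 to 4 kb had a median of 0.08 and 0 calls, the 21 members of 4 to 6 kb had 0.16 and 1 call, the 13 members of 6 to 8 kb had 0.55 and 2 calls, and the 12 members over 8 kb had 0.51 and 3 calls. With RUNXi the medians were 0.13, 0.11, 0.32 and 0.60, with 0, 2, 1 and 6 calls. Over 8 kb, 10 of the 12 members were above the median of all genes of that length with each inhibitor, and at 4 to 6 kb 12 of 21 were with DDR1i and 10 of 21 with RUNXi.

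**Figure D3:**
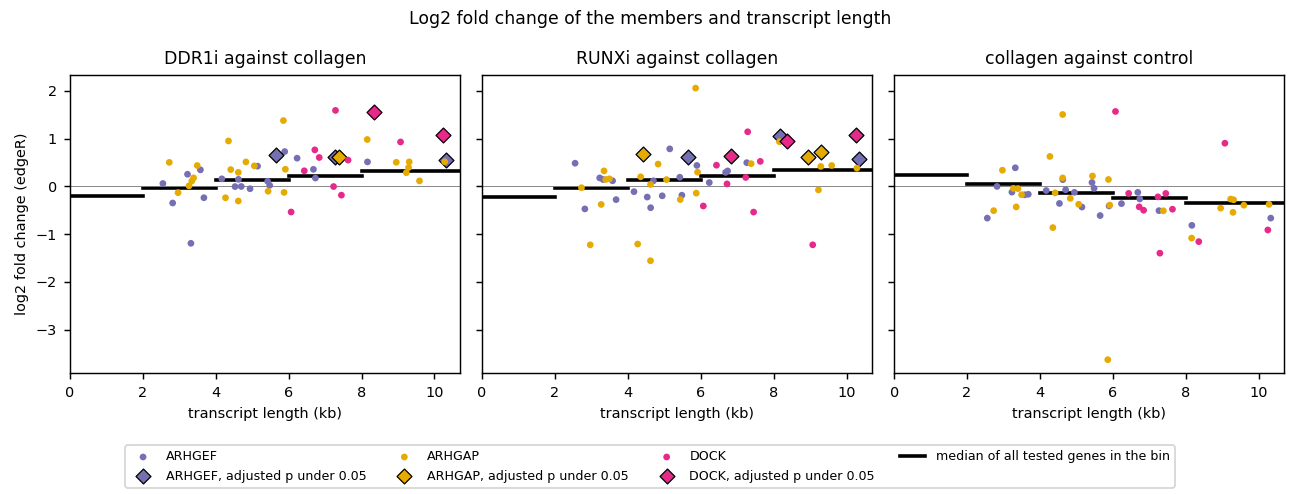
Log2 fold change (edgeR) of the 58 members against transcript length in kb, for DDR1i against collagen, RUNXi against collagen and collagen against control; diamonds mark members with an adjusted p under 0.05 and black bars the median of all tested genes in each length bin. The black bars climb with length in both inhibitor panels, from −0.19 to 0.32 and from −0.23 to 0.33, and descend from 0.24 to −0.35 in the collagen panel, and most diamonds lie among the longest members.

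The same trend was present in single libraries. As the median of log2 deviations from the mean of the 16 libraries, the members were at −0.19, −0.18 and −0.33 in collagen replicates 1, 2 and 4, the 3 lowest values of all libraries. Tested genes over 8 kb were at −0.17, −0.17 and −0.44 in these libraries, and genes up to 2 kb at 0.07, 0.11 and 0.34. Collagen replicate 3 was at 0.08 for the members and 0.15 for the genes over 8 kb, on the other side of 0. The summed CPM of the members was 1975, 1971 and 1719 in collagen replicates 1, 2 and 4 and 2374 in replicate 3, while it was 2092 to 2438 in control, 2086 to 2575 with DDR1i and 2195 to 2483 with RUNXi. What set the length trend in these libraries was not tested.

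**Figure D4:**
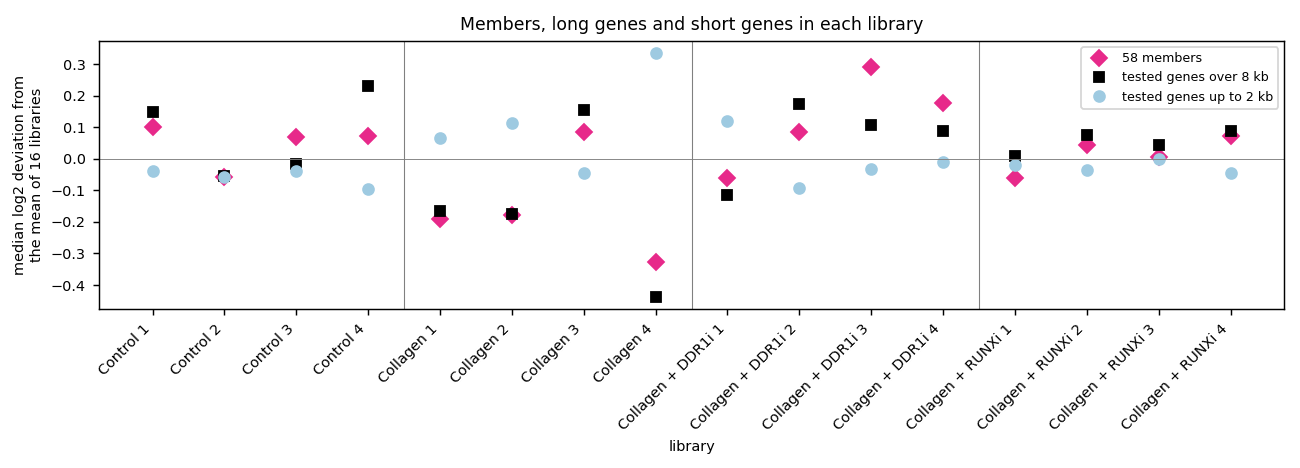
Median log2 deviation from the mean of the 16 libraries in each library, for the 58 members, for tested genes over 8 kb and for tested genes up to 2 kb. In the collagen group members and long genes lie together and opposite to short genes, with collagen replicate 4 lowest of all (−0.33 and −0.44) and collagen replicates 1 and 2 next for the members, whereas collagen replicate 3 lies at 0.08 and 0.15.

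With a smooth trend in length removed from each library, 2 members remained called with DDR1i, DOCK4 (edgeR adjusted p = 0.00376) and DOCK5 (edgeR adjusted p = 0.0124), and 0.892% of all genes were called in that fit. With RUNXi 3 remained, DOCK5 (edgeR adjusted p = 0.00695), ARHGEF17 (edgeR adjusted p = 0.0379) and ARHGAP18 (edgeR adjusted p = 0.0447), against 1.75% of all genes. The log2 fold changes of DOCK4 and DOCK5 with DDR1i fell to 1.31 and 0.79, and that of ARHGEF12 with DDR1i to 0.26. The member medians fell to 0.19 and 0.10.

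Collagen replicate 3 was above the other 3 collagen libraries for 32 of 58 members, which held for 29.5% of all tested genes, and for 11 of the 11 called members. The called members were chosen as higher than those 3 libraries, so that the last count follows in part from the choice. With it included in the fit, the log2 fold change with DDR1i was 1.12 for DOCK4 (edgeR adjusted p = 0.197) and 0.69 for DOCK5 (edgeR adjusted p = 0.491). With RUNXi it was 0.68 for DOCK5 (edgeR adjusted p = 0.303), 0.71 for ARHGEF17 (edgeR adjusted p = 0.221) and 0.59 for ARHGAP18 (edgeR adjusted p = 0.115). The directions of these values stayed the same and no member passed the threshold. Without collagen replicate 4, the library with the lowest long genes, 2 members were called with DDR1i (DOCK4 and DOCK5) and 2 with RUNXi (DOCK5 and ARHGEF17). These were also the members called in each of the 11 fits that left out 1 library.

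**Figure D5:**
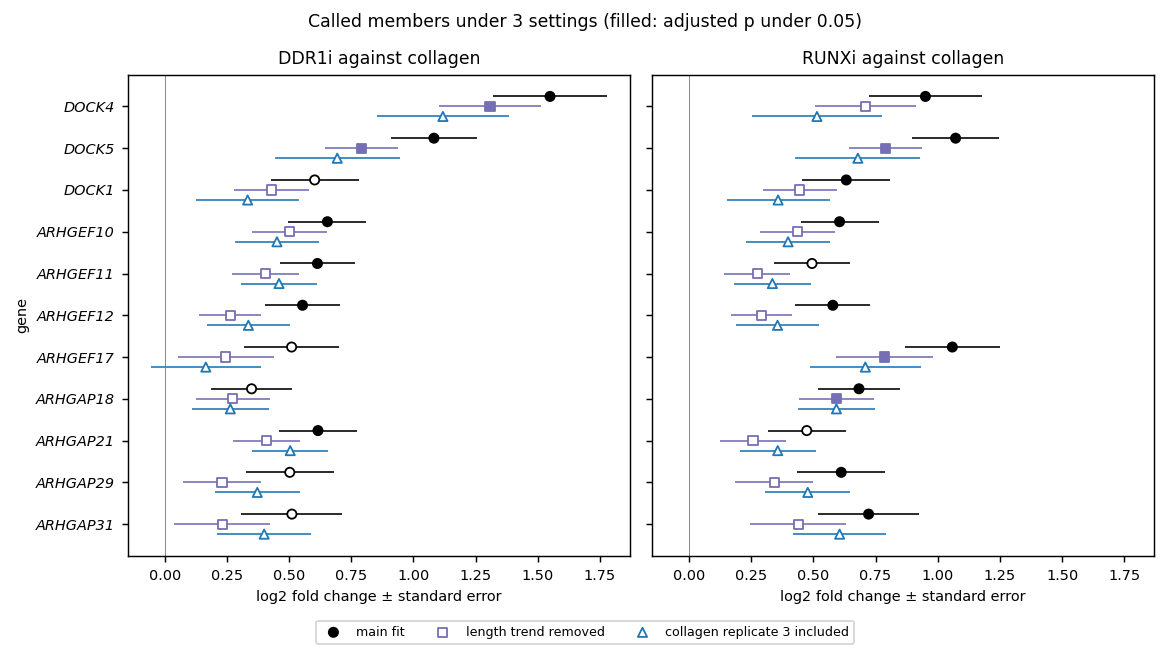
Log2 fold change and standard error of the 11 called members with DDR1i and with RUNXi against collagen, in the fit without collagen replicate 3, with the trend in transcript length removed, and with collagen replicate 3 included; filled symbols have an adjusted p under 0.05. Removing the trend leaves DOCK4 and DOCK5 filled with DDR1i and DOCK5, ARHGEF17 and ARHGAP18 filled with RUNXi, and all symbols are open with collagen replicate 3 included.

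The wider pathway was read from lists of other genes in the same fits. Of 25 tested exchange factors outside the ARHGEF and DOCK names, 2 were higher with DDR1i and 0 lower, TRIO, a Rac1 and RhoA exchange factor (log2 fold change 1.06), and DNMBP, a Cdc42 exchange factor (1.02), and 1 was higher with RUNXi, TRIO (0.87). Of 26 tested GAPs outside the ARHGAP names, 3 were higher with DDR1i, SRGAP1 (0.73), MYO9B (0.71) and ABR (0.61), and 1 with RUNXi, MYO9B (0.58). The medians of these lists were 0.39 and 0.26 with DDR1i and 0.24 and 0.09 with RUNXi, and for all 5 genes collagen replicate 3 was above the mean of the other collagen libraries.

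The GTPases themselves had medians of −0.10 with DDR1i and −0.15 with RUNXi. Of 17 tested genes for these GTPases, 0 were called with DDR1i and 2 were lower with RUNXi, RAC1 (log2 fold change −0.42, edgeR adjusted p = 0.0472) and RAC2 (−0.51, edgeR adjusted p = 0.0185). RAC2 had 131 ± 11.4 CPM (SD, n = 3) with collagen, 92.4 ± 1.61 CPM (n = 4) with RUNXi and 143 ± 11 CPM (n = 4) with DDR1i, and was higher with DDR1i than with RUNXi (0.64, edgeR adjusted p = 0.00189). ARHGDIB, which encodes a RhoGDI that holds GTPases in the cytosol, had the same order of groups, with 120 ± 13.7, 79.2 ± 10.6 and 129 ± 10.4 CPM in the same groups, a log2 fold change of −0.61 with RUNXi (edgeR adjusted p = 0.0147) and a difference of 0.70 between the inhibitors (edgeR adjusted p = 0.00267). In collagen replicate 3, RAC2 and ARHGDIB had 126 and 107 CPM. RAC1 had 436 ± 91.2 CPM (SD, n = 3) with collagen and 328 ± 8.32 CPM (n = 4) with RUNXi, while collagen replicate 3, at 301 CPM, was below the RUNXi mean. DNMBP also differed between the inhibitors (0.68 higher with DDR1i, edgeR adjusted p = 0.029).

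Promoters of the members were read for the core letters of the RUNX binding motif, since AI-10-104 acts on RUNX proteins. The windows were 250 bases before to 50 after RefSeq transcript starts (GRCh38.p14), and 44 of the 58 members were matched by symbol, with 90 windows. The letters TGTGGT, on either strand, were in 8.89% of the member windows and 13.1% of all 35116 windows, and TGCGGT in 6.67% and 7.29%. Of the 9 members higher with RUNXi, 6 were matched (not DOCK5, ARHGEF10 and ARHGEF17), with 8 windows, of which 3 held TGTGGT and 0 held TGCGGT. These 3 windows are shown because they belong to members called with RUNXi and hold the letters. The letters are in capitals, so that their position can be read. Of the members higher with DDR1i, 4 were matched, with 8 windows, of which 2 held TGTGGT and 0 held TGCGGT. Those 2 were windows of DOCK4 and ARHGEF12, which were called with both inhibitors. The sequences run 5′ to 3′ on the strand of the gene, and each had 1 exact match in GRCh37, at chr1:94713253-94713552 for ARHGAP29 (minus strand), chr7:111846405-111846704 for DOCK4 (minus strand) and chr11:120255786-120256085 for ARHGEF12 (plus strand).
ARHGAP29: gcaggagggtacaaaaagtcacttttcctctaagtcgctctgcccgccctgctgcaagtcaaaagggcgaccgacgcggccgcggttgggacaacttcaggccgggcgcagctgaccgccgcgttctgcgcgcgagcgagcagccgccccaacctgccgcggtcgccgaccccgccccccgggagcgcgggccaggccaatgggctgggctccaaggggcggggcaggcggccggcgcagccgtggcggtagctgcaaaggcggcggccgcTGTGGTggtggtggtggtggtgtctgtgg
DOCK4: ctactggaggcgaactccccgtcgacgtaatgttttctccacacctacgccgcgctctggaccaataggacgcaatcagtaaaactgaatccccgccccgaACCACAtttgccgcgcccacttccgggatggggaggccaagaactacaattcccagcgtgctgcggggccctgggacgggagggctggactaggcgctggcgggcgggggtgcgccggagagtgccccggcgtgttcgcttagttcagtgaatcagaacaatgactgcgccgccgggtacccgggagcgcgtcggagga
ARHGEF12: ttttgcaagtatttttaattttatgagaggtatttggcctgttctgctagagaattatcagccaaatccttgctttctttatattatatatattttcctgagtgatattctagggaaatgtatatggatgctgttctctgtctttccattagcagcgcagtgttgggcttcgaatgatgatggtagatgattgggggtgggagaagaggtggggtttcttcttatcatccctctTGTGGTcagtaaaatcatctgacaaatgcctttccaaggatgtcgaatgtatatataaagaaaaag
In ARHGAP29 the letters begin at position 22 of a start inside the gene, where a run of repeated triplets begins. In DOCK4 they are read on the opposite strand (printed as ACCACA), with the first base at position −149, and in ARHGEF12 they begin at −16 of a start inside the gene. A match of 6 letters is a description of the window and not a binding site.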

How the data were processed

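MCF10A RNA was sequenced in 16 libraries, 4 in each of 4 groups assigned from the deposited labels. The authors deposited raw counts of reads per gene, without normalization, after alignment to hg19 (GRCh37) with STAR, as the submitters' processing notes state; counting tool, annotation and use of strand are not given in the sources used here, so that overlapping and antisense genes cannot be told apart. The labels do not say that replicates were separate cultures, and p-values then measure the spread between these samples, which may be technical. Doses and times came from the labels and the study's methods, written for its MCF10A collagen assay.

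Members and lists were chosen with earlier results of these data known. The test was that of edgeR 4.0.16 under R 4.3.3 (TMM, filterByExpr, robust quasi-likelihood fit, Benjamini-Hochberg adjustment over all tested genes, threshold 0.05). The inhibitors were compared with collagen and each other in 11 libraries, collagen with control in 7, and the inhibitors with control in 12. Fold changes are edgeR's fitted values. CPM used TMM factors over all 16 libraries. Lengths are those of canonical transcripts and positions those of whole genes. Both came from GENCODE v44 as lifted to GRCh37, to which 22015 of 26473 names were matched. The length trend was removed per library with a natural spline of 4 degrees of freedom. DESeq2 1.42.0 was the alternative test. The fits were tested on simulated data. Figures used Python 3.11.15, pandas 2.3.3 and matplotlib 3.10.9.

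Named members are, in each comparison, those past the threshold, or the 3 with the smallest p in a direction where fewer than 3 passed, the 3 with the highest level per kb in each subfamily, those next to the total of 160 counts and those with near copies. Values per library are given for called members, and the level of 1 DOCK member is not reported here. Same-numbered libraries did not deviate together in every pair (correlations −0.093 to 0.276), and the replicate number was not used as a block. No pair of replicates agreed within sampling noise (lowest chi-square per degree of freedom 18.72). Alternatives covered the test, normalization, filter, length and GC trends, groups in the fit, the replicate block, collagen replicate 3 and each library left out. The upper limit given for names without counts covers counting error only. Standard errors came from the quasi-likelihood fit and include the spread between libraries.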

Additional observations from a re-analysis of the deposited data

Results flagged for a closer look

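In 132 groups of 4 libraries (totals, summed members and the 31 members named by rule, each in 4 groups), 9 had a library whose gap to the nearest other, as a share of the group's range, passed the 95% limit of Dixon's test, and chance flags about 1 in 20 groups (6.6 here). The total count of collagen replicate 1 (17570707) was below the other collagen libraries (gap 0.896 of the range), and the summed CPM of the members in control replicate 2 (2092) was below the other control libraries (gap 0.847). For single members the flagged libraries were control replicate 3 for ARHGAP10 (50.2 CPM, others 31.2 to 33.6, gap 0.871) and ARHGEF17 (66.9 CPM, others 21.8 to 28.6, gap 0.849), and control replicate 2 for ARHGAP19 (20.1 CPM, others 30.6 to 32.3, gap 0.858). Collagen replicate 1 was high for ARHGEF16 (37.2 CPM, others 13.8 to 16.4, gap 0.890) and ARHGEF39 (21.3 CPM, others at most 15.7, gap 0.888). DDR1i replicate 2 was high for ARHGAP11A (119 CPM, others 80.7 to 81.8, gap 0.969), and DDR1i replicate 3 for ARHGEF2 (196 CPM, others 158 to 164, gap 0.848). Collagen replicate 3, which the main comparisons did not use, had a summed CPM of the members of 2373.79, above the 1719 to 1975 of the other collagen libraries and inside the control range of 2092 to 2438.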

How the results depend on the processing

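For DDR1i against collagen, 6 members were called, and DESeq2, DESeq2 size factors, removal of a GC trend, a minimum of 10 counts in every library and no filter gave 6 to 9. With the length trend removed the count was 2 (median log2 fold change 0.19), with that and the replicate block 3 (0.16), with collagen replicate 3 included 0, and with collagen replicate 3 included and the length trend removed, chosen after seeing the data, 0 (0.13). Leaving out 1 library gave 2 to 9 calls, with 2 without collagen replicate 4, DDR1i replicate 3 or DDR1i replicate 4. For RUNXi against collagen, 9 were called, and the first 5 of these settings gave 9 to 13. The count was 5 with all 4 groups in 1 fit, 3 (median 0.10) with the length trend removed, 4 (0.07) with the replicate block too, 0 with collagen replicate 3 included and 0 (0.06) with that and the trend removed. Leaving out 1 library gave 2 to 9 calls, with 2 without collagen replicate 4, 4 without RUNXi replicate 2 (3 higher and, as lower, ARHGAP24) or RUNXi replicate 4, and 5 without RUNXi replicate 1 or 3. The replicate block alone gave 7 and 9 calls and 0 in the other comparisons. The numbers mark no stated pairing, though in both inhibitor comparisons with collagen each sample correlated best with its own number.

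For collagen against control, where 0 members were called, DESeq2, no filter and all 4 groups in 1 fit each called 4, all lower, and the median of −0.27 became −0.13 with the length trend removed, −0.10 with the replicate block too, −0.18 with collagen replicate 3 included and −0.07 with that and the trend removed. For RUNXi against control the median became −0.15 without the 2 smallest control libraries. Among values of single members, 3 changed sign: ARHGEF16 without collagen replicate 1 (0.17 with DDR1i and 0.03 with RUNXi against collagen, with ranges of −0.56 to 0.17 and −0.69 to 0.03 when 1 library was left out) and ARHGEF7 for RUNXi against control without the 2 smallest control libraries (−0.09). Of the other values of named members over all alternatives, 835 kept their direction and side of the threshold, 113 lost a call and 10 gained one. Where a call was lost, the cause was not tested, other than that fewer libraries entered some fits.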
